A study of Mus musculus with 4 samples.

Results

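The transforming growth factor beta (TGF-beta) genes followed here are 9 in number and cover 3 kinds of product. They are the ligands Tgfb1, Tgfb2 and Tgfb3 with their carrier Ltbp1, the receptors Tgfbr1, Tgfbr2 and Tgfbr3, and the matrix genes Tgfbi and Ctgf, which TGF-beta signalling is known to switch on. All probe sets that the array's annotation gives to 1 of these genes alone were read, which came to 23 of the 34958 probe sets that name a single gene, and to 9 of 18194 genes. Ctgf was found under its current symbol, Ccn2.

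The 4 RNA samples were Snai1 knockout (KO) and control (F/F) embryoid bodies on day 5, and KO and F/F teratomas at week 6, with 1 Affymetrix mouse array each. Embryoid bodies are aggregates of embryonic stem cells, here begun as hanging drops and then left to differentiate in suspension. Teratomas are tumours of mixed tissues, here grown in male nude mice, 6 weeks old, from stem cells injected subcutaneously at the hind limbs. The sources used here do not say how the KO and F/F lines were made, whether each is 1 clone, or whether RNA was pooled over tumours. Nude mice lack a thymus and so mature T cells, but keep other leukocytes and supply vessels and stroma to a tumour, so teratoma RNA can hold host transcripts. With 1 array in each group there is no spread between replicates, no test was run and no difference below has a replicate check.

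TGF-beta is secreted in a latent form, in which its own propeptide holds the ligand and a latent TGF-beta binding protein ties the complex to the matrix. Once freed, a ligand binds the type II receptor, which activates the type I receptor, and SMAD proteins carry the signal to the nucleus, where matrix genes are among the best known targets. The pathway is known for driving epithelial-mesenchymal transition, in which Snai1, a zinc-finger repressor of epithelial genes, is 1 of its effectors.

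RefSeq promoter windows, which run from 250 bases before to 50 bases after a transcription start on build GRCm38.p6, were at hand for 6 of the 9 genes, in 8 windows. Those of Tgfbi, Tgfb1 and Tgfbr2 are shown because Tgfbi had the largest KO difference among the 9 genes, Tgfb1 differed in the other direction, and Tgfbr2 was lower in KO samples of both tissues. Capitals mark the SMAD-type element, CAGAC on either strand (GTCTG on the strand shown). The Tgfbi window lies at chr13:56609336-56609635 on the plus strand, that of Tgfb1 at chr7:25686752-25687051 on the plus strand, and that of Tgfbr2 at chr9:116175314-116175613 on the minus strand.
Tgfbi: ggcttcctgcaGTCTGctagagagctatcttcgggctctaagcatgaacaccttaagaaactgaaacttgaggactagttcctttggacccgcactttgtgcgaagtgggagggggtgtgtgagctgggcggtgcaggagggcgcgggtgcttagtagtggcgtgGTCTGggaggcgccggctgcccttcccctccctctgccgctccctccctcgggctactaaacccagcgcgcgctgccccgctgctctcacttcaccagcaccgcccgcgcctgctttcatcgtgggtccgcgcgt
Tgfb1: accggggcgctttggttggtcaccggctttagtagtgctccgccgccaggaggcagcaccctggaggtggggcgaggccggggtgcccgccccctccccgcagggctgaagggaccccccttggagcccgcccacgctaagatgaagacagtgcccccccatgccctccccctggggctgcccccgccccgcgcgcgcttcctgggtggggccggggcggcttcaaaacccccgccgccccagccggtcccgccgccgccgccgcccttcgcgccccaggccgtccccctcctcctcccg
Tgfbr2: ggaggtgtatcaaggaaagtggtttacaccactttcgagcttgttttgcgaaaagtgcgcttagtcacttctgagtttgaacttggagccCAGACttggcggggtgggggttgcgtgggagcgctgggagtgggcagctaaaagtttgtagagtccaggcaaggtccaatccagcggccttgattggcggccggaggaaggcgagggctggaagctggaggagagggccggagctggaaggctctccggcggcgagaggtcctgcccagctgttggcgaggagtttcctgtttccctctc

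The letters of the Snail-type E-box, CAGGTG read on both strands, were found in 0 of these 8 windows, while 20.2% of all 32851 promoter windows hold them. CAGAC was found in 6 of the 8, against 49.6% of all windows. It starts at positions -239 and -85 from the start site in the Tgfbi window and at position -160 in the Tgfbr2 window, and is not among the letters of the Tgfb1 window. A GC box, GGGCGG on both strands, was found in 3 of the 8 windows, against 35.7% of all windows, and 6 of its matches lie in the Tgfb1 window, 77% of whose bases are G or C. These matches describe the letters of a short window only.

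Expression values are log2 values made by robust multi-array average (RMA), a scale on which 1 unit is 2-fold. The median of each array's own probe sets served as its floor, at 4.73 and 4.71 in KO and F/F embryoid bodies and at 5.04 and 5.08 in KO and F/F teratomas. A value under the floor was read as the floor, and a difference with 1 array under its floor is a bound, written as at least that many fold. Each gene is represented by whichever of its probe sets averaged highest across the arrays. Of the 23 probe sets, 16 reached the floor on at least 1 array and 12 on all 4, and each gene had at least 1 that did so on 3 arrays or more. Between probe sets of the same gene, differences varied with a pooled SD of 0.29 in the KO comparison of embryoid bodies, 0.28 in that of teratomas, and 0.65 and 0.66 between tissues in KO and F/F samples. That SD leaves out all variation between cultures or tumours.

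The targeted gene, Snai1, read 3.45 and 4.78 in KO and F/F embryoid bodies and 3.44 and 3.59 in KO and F/F teratomas, so it reached the floor only in F/F embryoid bodies. Whether its probe set lies in the deleted part is not given. Neural markers were at or above the floor for 8 of 8 genes in both teratomas, against 5 in KO and 4 in F/F embryoid bodies, and cartilage markers were so for 4 of 8 genes in KO and F/F teratomas, 4 in KO and 5 in F/F embryoid bodies. The excess of 3' over 5' signal of Gapdh, a measure of RNA integrity and labelling, was 0.10 and 0.17 in KO and F/F embryoid bodies and 0.40 and 0.65 in KO and F/F teratomas. That of Actb was 0.31 and 0.38 in KO and F/F embryoid bodies and 0.85 and 1.03 in KO and F/F teratomas.

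**Figure D1:**
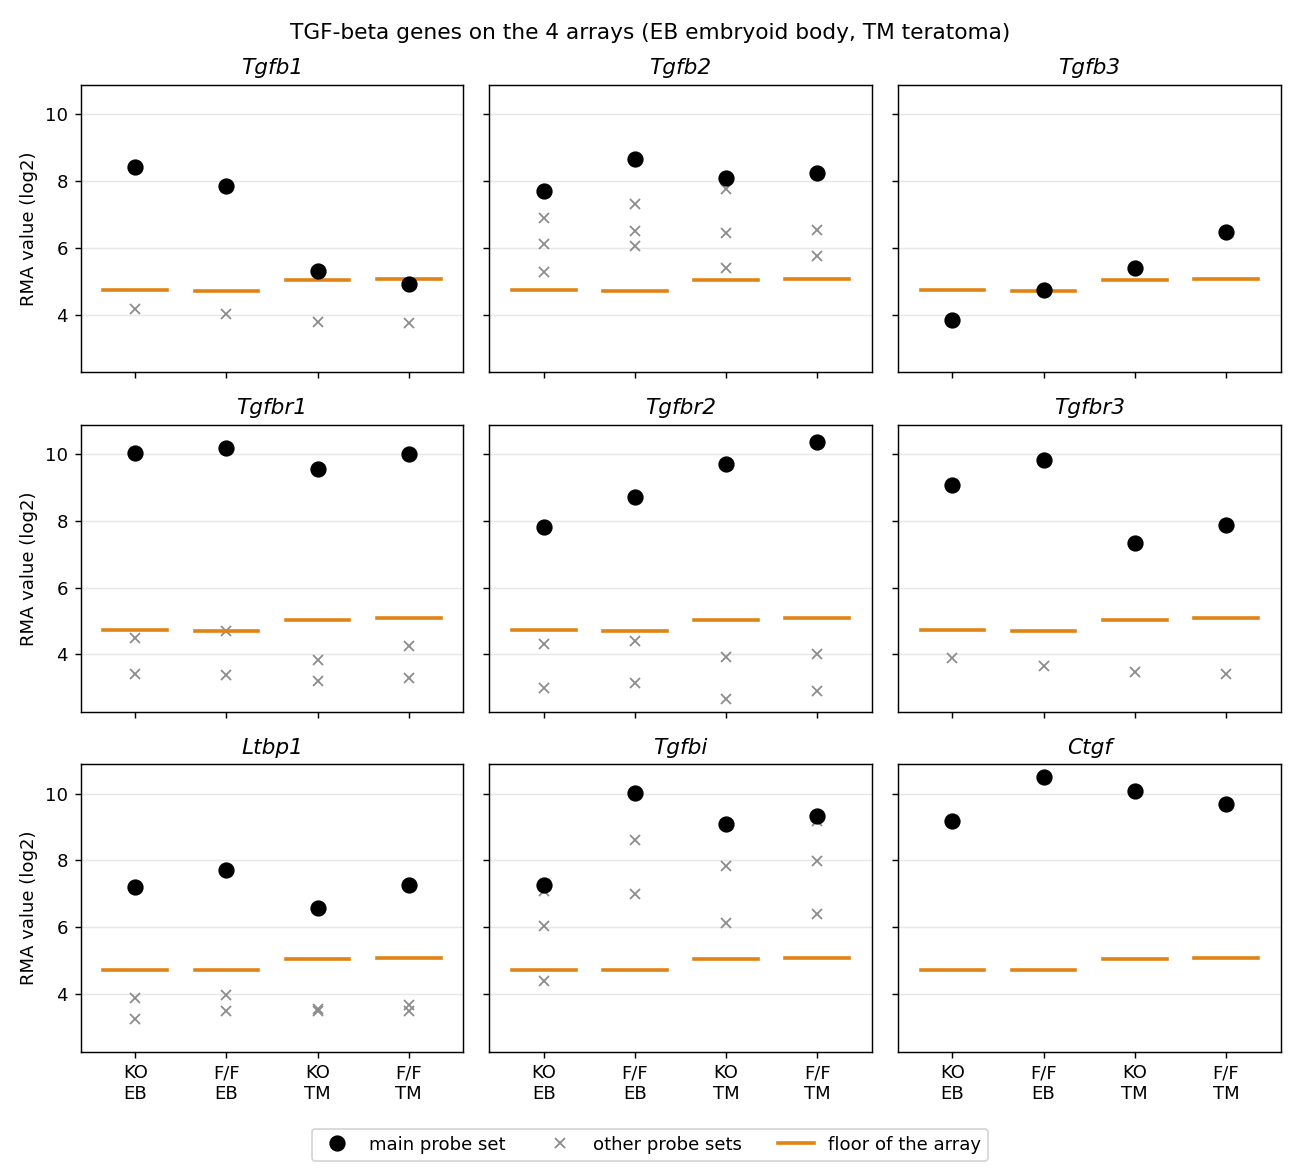
RMA values (log2, vertical axis) of all 23 probe sets of the 9 genes on the KO and F/F arrays of embryoid bodies (EB) and teratomas (TM), with black dots for the main probe set, grey crosses for the others and an orange bar for the floor of each array. Tgfbi sits at 7.27 in KO embryoid bodies, against 10.01 in F/F embryoid bodies, and Tgfb1 lies near the floor in KO and F/F teratomas.

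How the TGF-beta genes differ in embryoid bodies that lack Snai1 was the first question. Of the 9 genes, 2 were at least 2-fold lower in KO embryoid bodies, both of them matrix genes, and 0 were at least 2-fold higher. Over all 12283 measured genes, 3.98% were at least 2-fold lower and 2.18% at least 2-fold higher. In sign, 8 of the 9 were below 0, with a median difference of -0.76 against 0.03 over all measured genes. The nearest to 0 of the 8 was Tgfb3, a bound of -0.01, and 44.7% of measured genes had a lower difference than that. RNA from whole aggregates cannot tell fewer cells of a type from less RNA per cell, here or in the teratomas.

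Tgfbi, which encodes a secreted matrix protein that binds integrins and collagen, had the largest difference of the 9. It read 7.27 in KO embryoid bodies, against 10.01 in F/F embryoid bodies, and 9.08 and 9.33 in KO and F/F teratomas. The KO embryoid body array was the lowest, and the other 3 ran from 9.08 to 10.01. The difference of -2.74 in embryoid bodies, 6.70-fold lower in KO, had only 50 of the 12283 measured genes below it. Its 3 other probe sets differed by -2.92, -2.59 and, as a bound, -2.27, so all 4 pointed the same way.

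Ctgf, which encodes a matricellular protein that binds growth factors and integrins and promotes matrix production, has a single probe set here. Its values were 9.19 in KO and 10.49 in F/F embryoid bodies, and 10.09 in KO and 9.70 in F/F teratomas. KO embryoid bodies were again the lowest of the 4, 2.46-fold lower than F/F embryoid bodies (difference -1.30), and 302 measured genes had lower differences. In teratomas the KO array was the higher of the pair, by 0.39.

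Among the ligands, Tgfb1 stood apart in sign. It read 8.41 in KO embryoid bodies, against 7.87 in F/F embryoid bodies, a difference of 0.54 or 1.46-fold, and 7.86% of measured genes had a higher difference. Tgfb1 is known for its roles in yolk sac blood and vessel formation and in restraining immune cells. Its other probe set was below the floor on all 4 arrays.

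Tgfb2, a ligand needed for heart, skeletal and inner ear development in mice, read 7.69 in KO embryoid bodies, against 8.65 in F/F embryoid bodies. The difference of -0.96, or 1.94-fold lower in KO, was just short of 2-fold. Its 3 other probe sets gave -0.77, -0.41 and -0.39, so the size depends on the probe set while the sign does not. Tgfb3, the ligand required for fusion of the palate, read 3.83 in KO and 4.75 in F/F embryoid bodies. Only the F/F value reached its floor of 4.71, so the bound is close to 0 (at least 1.01-fold lower in KO), and the raw values differ by -0.92.

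The receptors lay below 0 in KO embryoid bodies, each through 1 probe set. Their other probe sets were under the floor on every array, except for 1 of Tgfbr1 that just reached it in F/F embryoid bodies. Tgfbr2, the type II receptor that binds ligand first, read 7.83 in KO and 8.71 in F/F embryoid bodies, or 1.84-fold lower in KO (difference -0.88). Tgfbr3, or betaglycan, the co-receptor that presents ligand and matters most for TGF-beta 2, read 9.06 in KO and 9.83 in F/F embryoid bodies, a difference of -0.76. Both differences exceed the pooled SD between probe sets of 0.29. Tgfbr1, the type I receptor kinase ALK5, read 10.03 in KO and 10.19 in F/F embryoid bodies, and its difference of -0.16 is within that SD. Ltbp1, which ties latent TGF-beta to the matrix, read 7.20 in KO and 7.72 in F/F embryoid bodies, a difference of -0.52.

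Markers of several cell types were lower in KO embryoid bodies alongside these genes. Of 9 measured fibroblast and mesenchyme markers (median -1.13), 5 were at least 2-fold lower and 3 were above 0. The 5 lower were Col6a1, Col6a2, Col6a3, Pdgfra and Pdgfrb. Another probe set of Col6a2 gave -0.33 and another of Pdgfrb -0.89, both short of 2-fold. Other Pdgfra probe sets gave bounds of -0.47 and -1.03. At least 2-fold lower were also 5 of 6 platelet and megakaryocyte markers (median -1.98) and 5 of 8 endothelial markers (median -1.39). So were 5 of 8 visceral endoderm markers (median -2.06, with 1 more, Sox17, 2.34-fold higher) and 2 of 7 leukocyte markers (median -0.39). The median level was 5.43 in KO and 6.94 in F/F embryoid bodies over the 10 fibroblast and mesenchyme markers, and 4.32 in KO and 6.17 in F/F embryoid bodies over the 8 platelet and megakaryocyte markers. Platelet and megakaryocyte markers reached the floor for 2 of 8 genes in KO and 6 of 8 in F/F embryoid bodies, with Gp6 and Ppbp under it in both. Leukocyte markers reached it for 4 of 10 genes in KO and 7 of 10 in F/F embryoid bodies. Epithelial markers differed upwards, with 2 of 10 at least 2-fold higher (median 0.86). The part of any of these cell types in the TGF-beta differences was not tested.

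**Figure D2:**
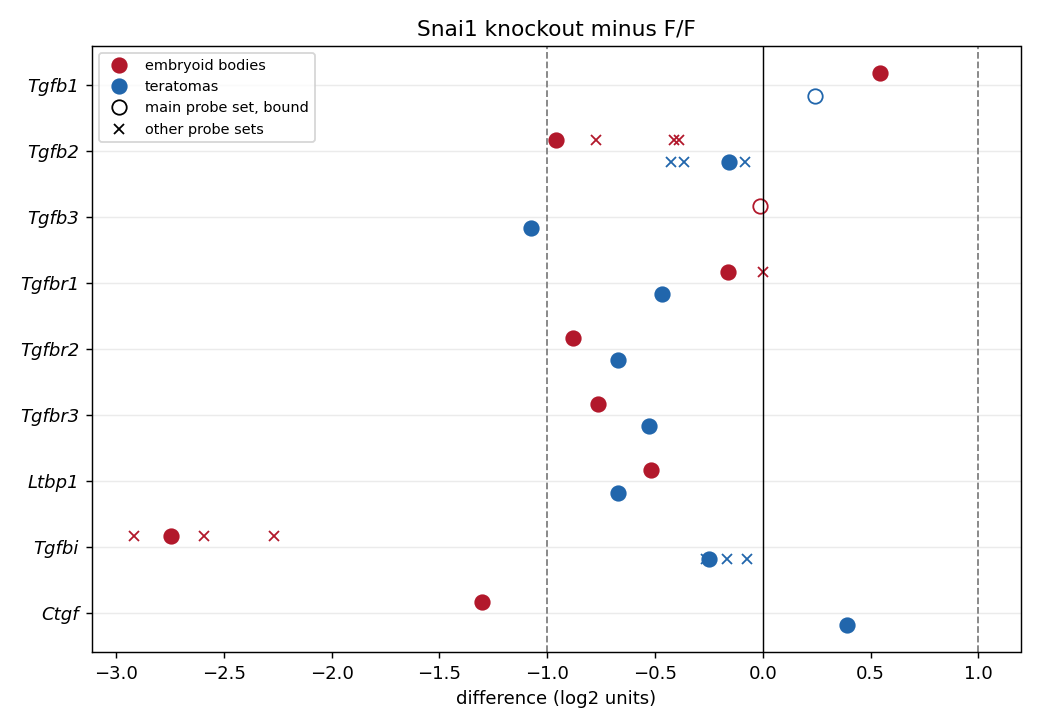
Difference KO minus F/F (log2 units, horizontal axis) for each gene, in red for embryoid bodies and blue for teratomas, with dots for the main probe set, open dots for bounds, crosses for other measured probe sets and dashed lines at 2-fold. Tgfbi is far left in embryoid bodies at -2.74 and near 0 in teratomas at -0.25, and Ctgf changes side.

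The second comparison asked the same of week 6 teratomas. Only Tgfb3 was at least 2-fold lower in the KO teratoma, and 0 of the 9 genes were at least 2-fold higher. Over 12198 measured genes, 1.07% were at least 2-fold lower and 3.25% at least 2-fold higher. Of the 9 genes 7 were below 0, with a median of -0.47 against 0.06 over all measured genes. The nearest to 0 of the 7 was Tgfb2 at -0.16, and 25.2% of measured genes had a lower difference than that.

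Tgfb3 read 5.40 in the KO teratoma, against 6.47 in the F/F teratoma, or 2.11-fold lower in KO (difference -1.07). The gene has 1 probe set here, and the KO value lies close to its floor of 5.04. With the floor at the 65th percentile of each array the difference was -0.02. Without a floor the genotype difference was -0.92 in embryoid bodies, where the KO value lies under its floor, and -1.07 in teratomas.

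Tgfbr2 read 9.70 in the KO teratoma, against 10.37 in the F/F teratoma, and was 1.59-fold lower in KO (difference -0.67). Ltbp1 read 6.58 in KO and 7.26 in F/F teratomas, 1.59-fold lower in KO as well. Tgfbr3 read 7.35 in KO and 7.87 in F/F teratomas (-0.53), and Tgfbr1 9.54 in KO and 10.01 in F/F teratomas (-0.47). These 4 exceeded the pooled SD between probe sets of 0.28, and all 4 were also below 0 in embryoid bodies. A lower difference than that of Ltbp1 was found in 3.56% of measured genes, and than that of Tgfbr2 in 3.62%.

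Tgfbi, Tgfb2 and Tgfb1 differed little between the teratomas. Tgfbi differed by -0.25 with its other probe sets from -0.26 to -0.07, and Tgfb2 read 8.08 in KO and 8.24 in F/F teratomas, a difference of -0.16 with other probe sets from -0.42 to -0.08. Tgfb1 read 5.32 in the KO teratoma and 4.93, under the floor, in the F/F teratoma, so that it was at least 1.18-fold higher in KO. The genotype difference in teratomas minus that in embryoid bodies was 2.50 for Tgfbi, 1.69 for Ctgf, 0.80 for Tgfb2 and -1.06 for Tgfb3. The value for Tgfb3 rests on the floor, and that for Tgfb2 on 1 probe set. By the 3 other probe sets of Tgfb2 it lay between -0.01 and 0.41. For the other 5 genes it lay between -0.31 and 0.24. None of these was tested.

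Beside them, leukocyte markers were at least 2-fold higher in the KO teratoma for 3 of 9 measured genes (median 0.45), and fibroblast and mesenchyme markers split, with 2 of 10 higher and 3 lower by 2-fold (median -0.46). Endothelial markers had a median of -0.24 and epithelial markers one of -0.47, with 0 of 8 and 1 of 10 at least 2-fold lower. Platelet and megakaryocyte markers had a median of 0.38, neural markers 0.12 and cartilage markers -0.19. Visceral endoderm markers split, with 3 of 6 at least 2-fold lower and 1 higher (median -0.91). They ran from Afp, 7.14-fold lower in KO, to Ttr, 5.85-fold higher. Other Afp probe sets gave -1.23 and a bound of -2.17, and those of Ttr 2.15 to 2.71. Pluripotency markers were at least 2-fold higher in the KO teratoma for 4 of 8 (median 1.11), against 0 of 8 in KO embryoid bodies (median 0.53). Their part in the TGF-beta values was not tested.

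The third comparison set the tissues against each other within each genotype. In KO samples 2 of the 9 genes were at least 2-fold higher in the teratoma and 2 lower, where 19.8% of 12937 measured genes were higher and 19.8% lower. In F/F samples 2 were higher and 2 lower, where 16.2% of 12957 measured genes were higher and 19.0% lower. Counts of 2 in 9 are thus close to these shares. Teratoma RNA came from Trizol and that of embryoid bodies from column kits, so extraction and tissue cannot be told apart. The median over all measured genes was -0.15 in KO and -0.18 in F/F samples as deposited, and -0.46 in KO and -0.55 in F/F samples with arrays centred on their medians, so tissue differences of that order depend on the scaling.

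Tgfb1 had the widest range of the 9 genes over the 4 arrays, 3.48 log2 units. In the KO teratoma it was 8.50-fold lower than in KO embryoid bodies (5.32 against 8.41), and in the F/F teratoma at least 6.89-fold lower than in F/F embryoid bodies (4.93 against 7.87). Both embryoid bodies lay well above both teratomas, and under 1% of measured genes had a lower difference in either genotype (0.904% in KO and 0.965% in F/F). With teratoma values so near the floor the size depends on it: at a floor of the 65th percentile the bounds were -1.96 in KO and -1.47 in F/F samples, and with the mean of both probe sets -1.25 in KO and, short of 2-fold, -0.86 in F/F samples. Marker lists went in both directions. Leukocyte markers were at least 2-fold higher in the teratoma for 8 of 9 measured genes in KO and 6 of 9 in F/F samples. Neural markers were so for 7 of 8 in both, and fibroblast and mesenchyme markers for 7 of 9 in KO and 7 of 10 in F/F samples. Epithelial markers were at least 2-fold lower for 10 of 10 in KO and 6 of 10 in F/F samples. Visceral endoderm markers were so for 4 and 7 of 8, and pluripotency markers for 4 and 6 of 8. The part of these cell types in the Tgfb1 values was not tested. Tgfbr3, like Tgfb1, was lower in teratomas, by 1.71 log2 units in KO and 1.95 in F/F samples, or 3.28-fold and 3.87-fold.

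Tgfbr2 was higher in the teratoma in both genotypes, 3.67-fold in KO and 3.17-fold in F/F samples. Averaged with its other 2 probe sets, which were under the floor throughout, it differed by 0.38 in KO and 0.34 in F/F samples and was no longer 2-fold higher. The order of its levels was F/F teratoma, KO teratoma, F/F embryoid bodies and KO embryoid bodies, and the closest neighbours in that order, the 2 teratomas, differed by 0.67. Tgfb3 followed the same order and was 3.30-fold higher in the F/F teratoma than in F/F embryoid bodies, and at least 1.58-fold higher in the KO pair. Raising the floor to the 65th percentile left a bound of 0.27 for the F/F difference, short of 2-fold.

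Tgfbi and Ctgf had tissue differences of opposite sign in the genotypes. Tgfbi was 3.52-fold higher in the KO teratoma than in KO embryoid bodies, and differed by -0.68 in F/F samples. Ctgf differed by 0.90 in KO and -0.79 in F/F samples. These values share arrays with the genotype comparisons and are the same 4 numbers read another way. Tgfb2 differed by 0.39 in KO and -0.41 in F/F samples, with other probe sets from 0.12 to 0.87 in KO and from -0.29 to 0.88 in F/F samples, so the F/F sign is not settled. Ltbp1 differed by -0.62 in KO and -0.47 in F/F samples. Tgfbr1 differed by -0.48 in KO and -0.17 in F/F samples, and the F/F value turned to 0.02 after quantile normalization and to 0.08 with arrays centred on probe sets above the floor.

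**Figure D3:**
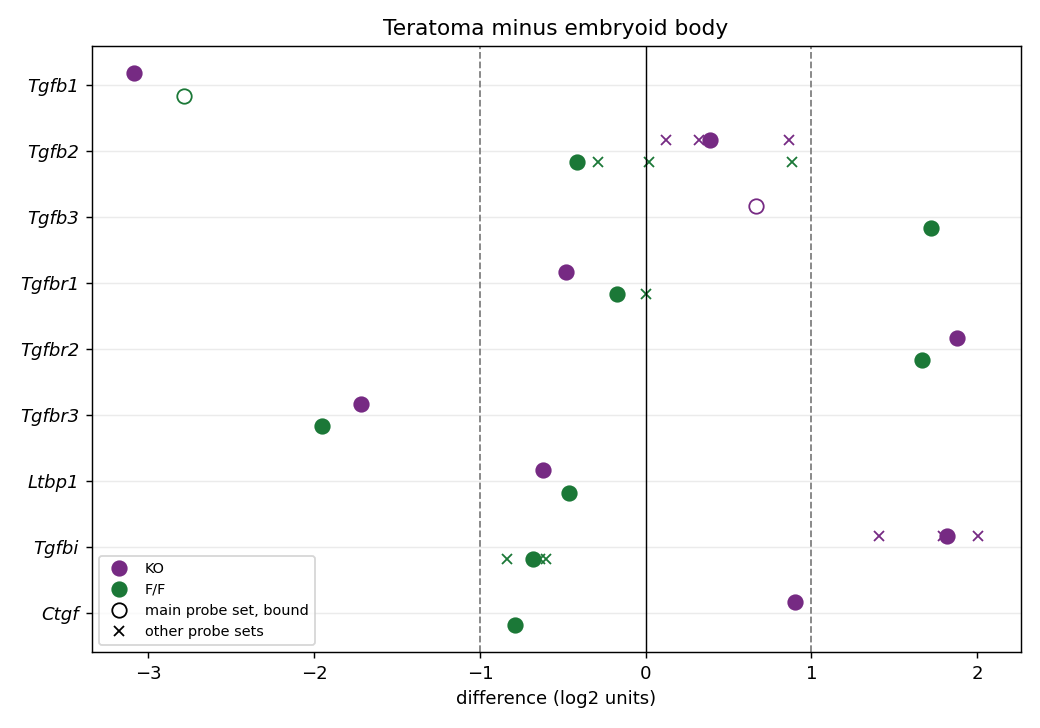
Difference teratoma minus embryoid body (log2 units, horizontal axis) for each gene, in purple for KO and green for F/F samples, with dots for the main probe set, open dots for bounds, crosses for other measured probe sets and dashed lines at 2-fold. Tgfb1 and Tgfbr3 lie left and Tgfbr2 right of the lines in both genotypes, while Tgfbi lies on opposite sides of 0.

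Other genes of the pathway were read as 4 lists. Matrix targets, genes of the extracellular matrix that TGF-beta is known to induce, were at least 2-fold lower in KO embryoid bodies for 13 of 21 measured genes, with 0 higher and a median of -1.20. The collagen-binding proteoglycan gene Lum read 5.29 in KO and 11.65 in F/F embryoid bodies, the adhesion gene Postn 5.91 in KO and 11.85 in F/F, and the fibrillar collagen gene Col3a1 7.24 in KO and 13.02 in F/F embryoid bodies. Next came the collagen genes Col5a2 (difference -4.93) and Col1a2 (-3.71). These differences exceed that of Tgfbi. In the KO teratoma 6 of 22 were lower and 0 higher, with a median of -0.67, led by the crosslinking enzyme gene Lox (-1.37), Col5a1 (-1.31), the microfibril gene Mfap5 (-1.30), Col1a1 (-1.20) and Lum (-1.19).

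Latency and activation genes, which hold TGF-beta in the matrix or release it, were at least 2-fold lower for 5 of 21 in KO embryoid bodies, with 0 higher and a median of -0.17. The TGF-beta-binding proteoglycan gene Dcn read 5.17 in KO and 9.58 in F/F embryoid bodies, and the integrin gene Itgb3 5.73 in KO and 9.26 in F/F embryoid bodies, although another Itgb3 probe set gave a bound of -0.16. Emilin1, whose product limits processing of the TGF-beta precursor in mice, differed by -1.37 (-0.49 by its other probe set), and the activator gene Thbs1 by -1.16 (-0.60 by its other). Fmod was at least 2.88-fold lower, with 4 other probe sets at bounds of -0.18 to -0.07. In the KO teratoma 3 of 23 were lower and 0 higher, with a median of -0.28. They were Thbs2 (-1.08, with another probe set at -0.14), Emilin1 (-1.06) and the proteoglycan gene Bgn (9.21 in KO and 10.22 in F/F teratomas). Other Bgn probe sets gave -0.81 and -0.80, short of 2-fold. Fbn2 (-0.96) and Mmp2 (-0.73) followed, with other probe sets past 2-fold, at -1.23 for Fbn2 and -1.06 for Mmp2.

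Co-receptors, SMADs and regulators lay near 0, with medians of -0.08 over 24 measured genes in embryoid bodies and -0.11 over 23 in teratomas. In KO embryoid bodies 2 were at least 2-fold lower, the co-receptor Nrp1 and the adaptor Dab2, both at -1.18, and 1 was higher, the SMAD corepressor Tgif1 at 1.06. The endothelial type I receptor Acvrl1 and the co-receptor Eng differed by -0.98 and -0.80. In teratomas 0 of 23 reached 2-fold in either direction. Cd109, a co-receptor that dampens TGF-beta signalling, had the largest difference there, 0.81, and another of its probe sets gave a bound of 1.46.

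Transcriptional targets split in both tissues. In KO embryoid bodies 5 of 20 were at least 2-fold lower and 2 higher, with a median of 0.08. The matricellular gene Ccn4 differed by -3.72, the smooth muscle actin gene Acta2 by -2.34, Snai2 by -1.52 and the actin-binding gene Tagln by -1.44, whereas the cell cycle inhibitor gene Cdkn2b was 3.83-fold higher (7.49 in KO and 5.55 in F/F embryoid bodies). In the KO teratoma 2 of 21 were lower, Acta2 (-1.53) and Snai2 (-1.28, with another probe set at a bound of -0.24), and 1 was higher, Ccn1 (1.27), a close relative of Ctgf whose other probe sets gave 0.52 to 0.73. The median there was -0.05.

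**Figure D4:**
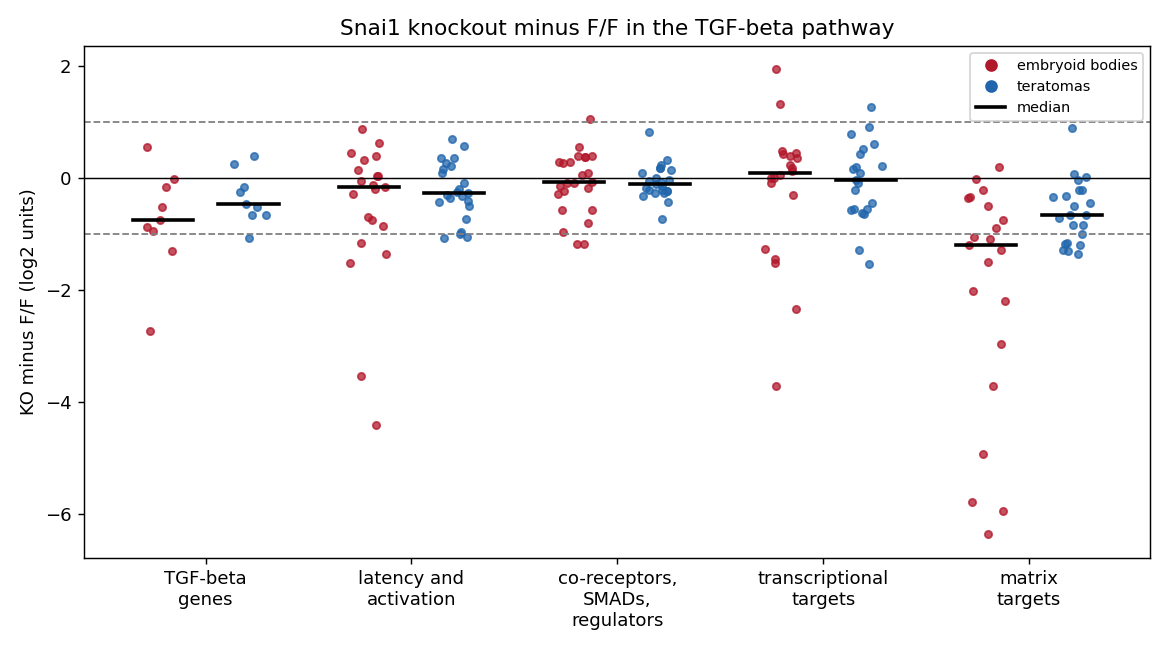
Difference KO minus F/F (log2 units, vertical axis) for the 9 TGF-beta genes and 4 lists of other pathway genes, in red for embryoid bodies and blue for teratomas, with a point per measured gene, a black bar at the median and dashed lines at 2-fold. Matrix targets reach down to -6.36 in embryoid bodies, while co-receptors, SMADs and regulators reach -1.18.

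Genes most like the 3 members with the widest range were sought among 12797 other genes, by the Euclidean distance between log2 values, with no floor applied, centred on each gene's mean over the 4 arrays. Nearest to Tgfb1 were Qprt (distance 0.18), Slc16a13 (0.20) and Prss12 (0.21). Closest to Tgfbi were the platelet glycoprotein gene Gp1bb (0.26), Msrb3 (0.35) and Synpo (0.40). For Tgfb3 they were the progenitor and endothelial surface gene Cd34 (0.31), Tgfbr2 itself (0.31) and Mgst2 (0.33). Some of these profiles include values under the floor, on 2 arrays for Qprt and Slc16a13 and on 1 for Gp1bb, as for Tgfb1 and Tgfb3 themselves. Another Gp1bb probe set differed by only -0.25 in embryoid bodies. The matches rest on 4 values each and are a description only.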

How the data were processed

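Log2 expression values per probe set were deposited by the authors for 4 arrays. Per the submitters' processing notes they were made with affy and RMA, a method of background correction, quantile normalization and probe summary. The sources used here give no versions and do not say whether all arrays were normalized in 1 run. Per the labels' protocols, 250 ng of total RNA was amplified and labelled with biotin.

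The table held 45101 probe sets, 64 of them controls. Of all of them, 34958 named 1 gene in the platform annotation and 932 several, and these counts include some controls. Of the non-control probe sets, 9160 named no gene here. Of the 34958, 34754 matched RefSeq (GRCm38.p6) by Entrez number, and 0 probe sets of the 9 genes named another gene. The probe set with the highest mean stood for its gene. Differences were taken after setting values under an array's median to that median, with bounds of the wrong sign set to 0; a gene was measured if 1 of the 2 arrays reached the floor, and was called at 2-fold. No test was run, since each group has 1 array. The number of arrays limits the precision. Calculations used Python 3.11.15 with pandas 2.3.3 and were tested on simulated data. The simulation set large shifts only in genes well above the floor, so recovery near the floor was not tried.

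Members, lists, markers and tests were chosen with earlier results of these data known. Up to 5 genes with the largest absolute difference are named per pathway list, and other marker genes were named after their values were seen. Alternatives covered the floor, the probe set, shared-sequence probe sets (suffix _x_at, _s_at or _a_at), the scaling and the fold threshold.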

Additional observations from a re-analysis of the deposited data

Results flagged for a closer look

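Ctgf had genotype differences of opposite sign in the tissues, -1.30 in embryoid bodies (9.19 in KO and 10.49 in F/F) and 0.39 in teratomas (10.09 in KO and 9.70 in F/F). Each rests on 1 array per group and 1 probe set, and the difference between the tissues was not tested. Of the other 8 genes, 0 had main probe sets of opposite sign.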

How the results depend on the processing

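Of 317 differences of the 9 genes recomputed under 9 alternatives, 296 moved by less than the pooled SD between probe sets, 21 moved by more and 0 of those at least 2-fold reversed. Settings of the floor and of the probe set cannot change a gene with 1 probe set well above the floor. Part of the 296 was thus fixed in advance. Alternatives that left a gene under the floor on both arrays are not among the 317. Tgfbi in KO embryoid bodies ranged from -2.92 to -2.59. Ctgf, which only the scalings could move, ranged from -1.32 to -1.29. Genes at least 2-fold lower in KO embryoid bodies numbered 5 at 1.5-fold and 1 at 3-fold, against 2. In the KO teratoma they numbered 3 at 1.5-fold, 0 at 3-fold and 0 with the floor at the 65th percentile, against 1. For teratoma over embryoid body, the genes higher in KO samples numbered 4 at 1.5-fold and 1 with the mean of probe sets, against 2. They numbered 3 with the floor at the 25th percentile, with no floor, or with arrays centred on probe sets above the floor. Those lower in KO samples numbered 3 at 1.5-fold, against 2. In F/F samples those higher numbered 1 with the floor at the 65th percentile and 1 with the mean of probe sets. Those lower in F/F samples numbered 1 with that mean and 4 at 1.5-fold or with arrays centred on their medians, each against 2. The mean of probe sets draws in sets under the floor. Without shared-sequence probe sets Tgfb2 differed by -0.41 in KO embryoid bodies. Of all calls in teratomas, 75.2% were higher in KO as deposited and 64.5% after quantile normalization. The share was 63.0% with arrays centred on probe sets above the floor and 78.7% with arrays centred on their medians. Between tissues, 2566 genes were higher and 2564 lower in KO samples and 2098 higher and 2456 lower in F/F samples. These were 2036 and 3786 in KO and 1533 and 4100 in F/F samples with arrays centred on medians, and 2922 and 1979 in KO and 2656 and 1635 in F/F samples when centred on probe sets above the floor. No paired analysis was possible because each group has 1 array. Values near the floor, such as those of Tgfb3 and of Tgfb1 in teratomas, set bounds rather than sizes.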
